A study of Mus musculus with 9 samples.

Results

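Anterior segment dysgenesis is a group of inherited malformations of the cornea, iris and drainage angle, and 7 mouse genes whose human or mouse mutations are known to cause such malformations were followed here. They were given as a list of names: Foxc1, Foxc2, Lmx1b, Foxe3, Pitx3, Cyp1b1 and Maf. All 7 were found by Entrez Gene identifier among the 19369 genes listed in at least 1 sample. The data were RNA-Seq values of 9 pooled samples from wild-type C57BL/6 embryos with no treatment stated, 3 biological replicates at each of 3 stages. The stages are named by embryonic day as E10.5, E14.5 and E16.5. An E10.5 sample pooled the periocular neural crest (pNC), the mesenchyme around the early eye, from 26 eyes after the optic cup, lens vesicle and ectoderm had been taken off. A cornea sample pooled 18 corneas for E14.5 or 12 for E16.5, and therefore mixes epithelium, stroma and endothelium. In such bulk samples, fewer cells of a type and less RNA per cell cannot be told apart.

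The front of the eye is built from surface ectoderm, which forms the lens and the corneal epithelium, and from neural crest mesenchyme, which forms the corneal stroma, the corneal endothelium, the iris stroma and the drainage angle. Foxc1 and Foxc2 encode paralogous forkhead transcription factors of this mesenchyme, and Lmx1b encodes a LIM homeodomain factor that it also needs. Foxe3, a forkhead factor, Pitx3, a homeodomain factor, and Maf, a basic leucine zipper factor, are known from the lens, and Cyp1b1 encodes a cytochrome P450 enzyme that metabolizes retinoids and steroids and is mutated in primary congenital glaucoma.

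Levels are given as FPKM, the fragments of a gene scaled for its transcript length and for the depth of the library. A comparison of levels between genes holds only as far as the transcript lengths used. Changes are log2 fold changes between stages from edgeR's quasi-likelihood test on the rounded expected counts (the estimated fragments of a gene), with the standard error (SE). A gene was called when its Benjamini-Hochberg adjusted p over the 14771 genes tested was under 0.05 and its log2 fold change was at least 1 in size. Each sample summed to between 8745161 and 9069023 expected counts. E14.5 replicate 1 stood apart from the other E14.5 samples. The epithelial keratin gene Krt12 was at 101.5 FPKM in it against 0.62 and 2.06 in replicates 2 and 3, and the stromal keratocan gene Kera at 803 FPKM against 83.1 and 151. The labelled tissues had their markers: Krt14 and Kera were at 447 FPKM or more in every E16.5 sample and at 2.21 or less in every E10.5 sample. Markers of vascular endothelium were also present (all 7 genes listed, with a summed FPKM of 147 to 241 in pNC, 59.5 to 106 in E14.5 corneas and 23.7 to 38.8 in E16.5 corneas). Of these 7 genes, 6 fell in each comparison of stages. Over all genes tested, 7.97% fell at E14.5 and 15.4% at E16.5 against E10.5, and 5.47% from E14.5 to E16.5. Kdr, which encodes a VEGF receptor, was not called in any comparison, with means of 26.8, 30.3 and 26.2 FPKM at the 3 stages in turn.

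Foxc1, Foxc2, Lmx1b and Maf were above 5 FPKM on average at some stage, Cyp1b1 reached 5.24 FPKM at E14.5 alone, and Foxe3 and Pitx3 stayed near the detection limit. In pNC the order of the mean levels was Foxc1 (33.9 FPKM), Foxc2 (30.4), Maf (7.34), Lmx1b (7.14), Cyp1b1 (1.74), Foxe3 (1.27) and Pitx3 (0.353). Foxc1 and Foxc2 overlapped there, as did Maf and Lmx1b, and Foxe3 overlapped both Cyp1b1 and Pitx3. In E14.5 corneas it was Lmx1b (49.4 FPKM), Foxc1 (37.2), Maf (9.20), Cyp1b1 (5.24), Foxc2 (4.21), Foxe3 (0.137) and Pitx3 (0.0267), with overlap between Lmx1b and Foxc1, between Cyp1b1 and Foxc2 and between Foxe3 and Pitx3. In E16.5 corneas it was Lmx1b (36.0 FPKM), Foxc1 (20.0), Maf (11.0), Cyp1b1 (1.40), Foxc2 (0.757) and Foxe3 (0.133), and Pitx3 was at 0 in all 3 samples. No neighbours in that last order overlapped from Lmx1b down to Foxe3. These levels depend on the transcript length used: the deposited length was 1219 bases for Lmx1b, 3990 for Foxc1 and 3642 for Maf, while their annotated transcripts have 4790, 5844 and 6360 exonic bases. The order of these genes is given for the deposited lengths only.

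**Figure D1:**
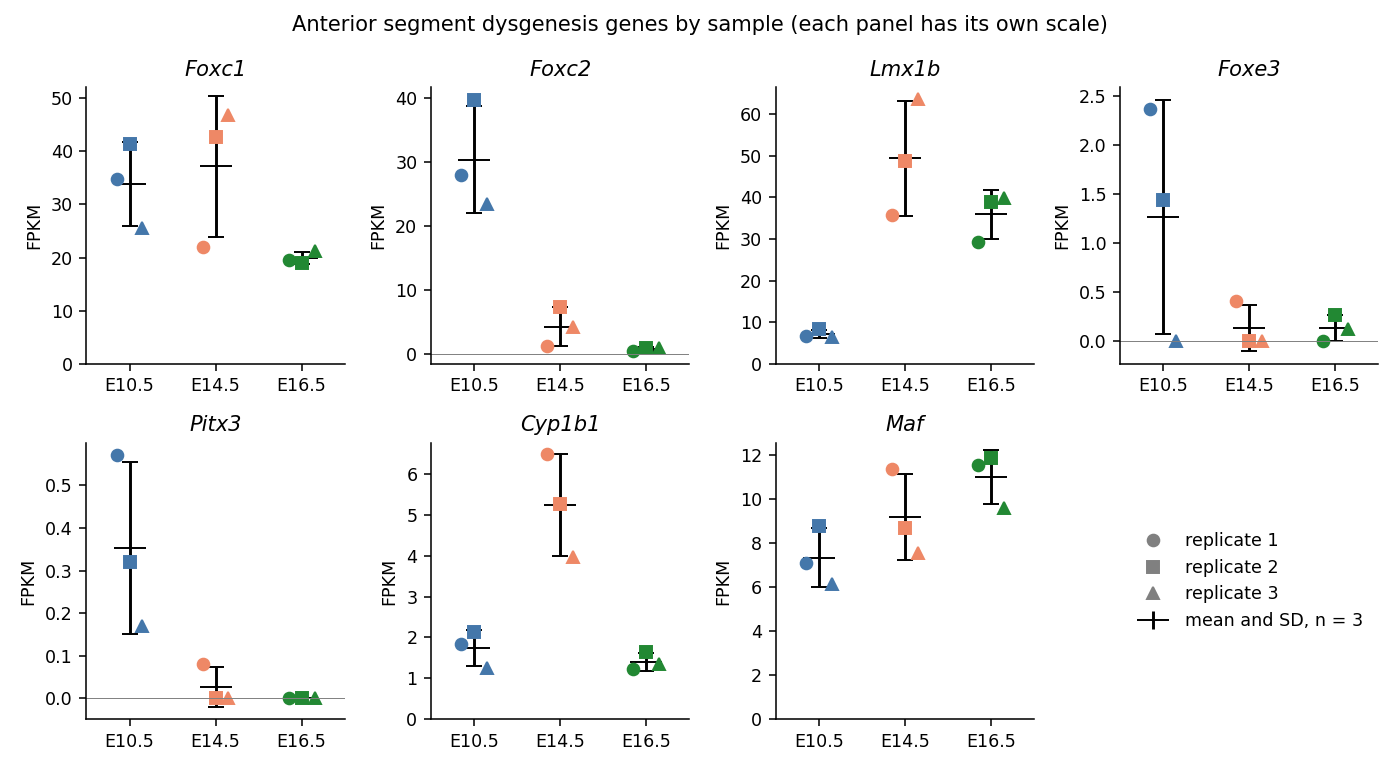
FPKM of the 7 genes in each of the 9 samples (y axis, a linear scale of its own in each panel) by stage (x axis). Points are replicates and black bars are the mean and SD of 3 samples. Foxc2 fell at both steps, Lmx1b was high in all 6 cornea samples, Cyp1b1 was highest at E14.5, and Foxe3 and Pitx3 were low throughout.

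Of the 7 genes, 5 passed the filter on low counts. Foxe3 and Pitx3 did not. From E10.5 to E14.5, Lmx1b and Cyp1b1 rose and Foxc2 fell, so that 3 of 5 were called beside 21.6% of all genes tested (13.6% higher and 7.97% lower). From E10.5 to E16.5, Lmx1b rose and Foxc2 fell, 2 of 5 beside 34.8% of all genes (19.4% higher and 15.4% lower). From E14.5 to E16.5, Foxc2 and Cyp1b1 fell, 2 of 5 beside 11.7% of all genes (6.26% higher and 5.47% lower). With 5 genes these shares cannot be set firmly against the background. The median log2 fold change of the 5 was 0.31, -0.16 and -0.74 in the 3 comparisons, against 0.01, 0.00 and -0.02 over all genes tested. The comparisons share samples in pairs and are not independent of each other. On the adjusted p alone, with no fold-change minimum, 3 of 5 passed at E14.5 against E10.5 (Lmx1b, Cyp1b1 and Foxc2) beside 56.4% of all genes (28.9% higher, 27.5% lower). At E16.5 against E10.5, 4 of 5 passed (Lmx1b and Maf higher, Foxc1 and Foxc2 lower) beside 69.8% (35.2% higher, 34.7% lower). From E14.5 to E16.5, 3 of 5 passed (Foxc1, Foxc2 and Cyp1b1, all lower) beside 35.0% (17.5% in each direction).

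**Figure D2:**
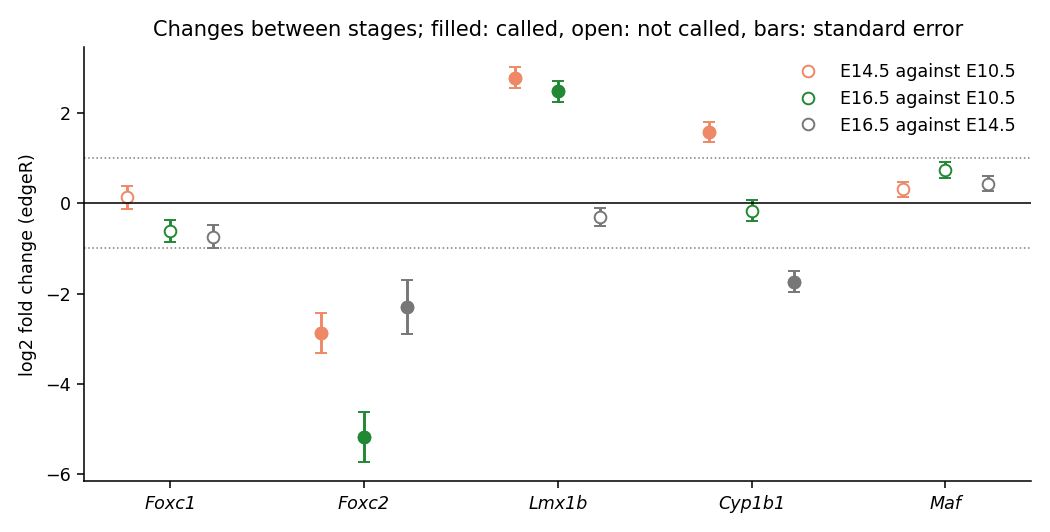
Log2 fold changes (y axis) of the 5 tested genes in the 3 comparisons of stages. Bars are standard errors, filled points were called and open points were not, and dotted lines mark a log2 fold change of 1 in either direction. Foxc2 lies furthest below 0 (-5.17 at E16.5 against E10.5) and Lmx1b furthest above it (2.78 at E14.5 against E10.5).

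Foxc1 and Foxc2, the mesenchymal forkhead pair, were at like levels in pNC and parted in the cornea. Foxc1 (Entrez 17300, a single-exon gene at chr13:31806646-31810635 on the + strand, GRCm38) was at 34.8, 41.3 and 25.6 FPKM in the E10.5 samples, 22.1, 42.8 and 46.8 in the E14.5 samples and 19.5, 19.0 and 21.3 in the E16.5 samples. All 3 E16.5 samples were below every other sample, and the E14.5 samples spanned the range of E10.5. The E16.5 mean of 20.0 ± 1.18 FPKM (SD, n = 3) stood against 33.9 ± 7.90 at E10.5 and 37.2 ± 13.3 at E14.5. The log2 fold change was 0.13 (SE 0.25, edgeR adjusted p = 0.688) at E14.5 against E10.5, and Foxc1 was not called. At E16.5 it was -0.62 against E10.5 (SE 0.25, edgeR adjusted p = 0.0473) and -0.74 against E14.5 (SE 0.25, edgeR adjusted p = 0.0414), both under the fold-change minimum. Without E14.5 replicate 1, where Foxc1 was at 22.1 FPKM, the log2 fold change from E14.5 to E16.5 was -1.01 with an edgeR adjusted p of 0.000165, and Foxc1 was then called. The adjusted p of that comparison was above 0.05, at 0.0586 to 0.157, without E10.5 replicate 1, E14.5 replicate 2 or 3 or any 1 of the E16.5 samples. That of E16.5 against E10.5 was above it, at 0.0514 to 0.172, without E10.5 replicate 1 or 2, E14.5 replicate 2 or any 1 of the E16.5 samples.

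Foxc2 (Entrez 14234, a single-exon gene at chr8:121116171-121118895 on the + strand) fell 7.30-fold from E10.5 to E14.5 and 36.0-fold from E10.5 to E16.5. It was at 28.0, 39.8 and 23.5 FPKM in the E10.5 samples, 1.17, 7.25 and 4.21 in the E14.5 samples and 0.42, 0.91 and 0.94 in the E16.5 samples. No stage overlapped another. The log2 fold change was -2.87 (SE 0.44, edgeR adjusted p = 0.00028) at E14.5 and -5.17 (SE 0.55, edgeR adjusted p = 9.6e-06) at E16.5 against E10.5. From E14.5 to E16.5 it was -2.30 (SE 0.60, edgeR adjusted p = 0.0135). That last call was lost without E14.5 replicate 2 (-1.68, adjusted p = 0.0557) and without E16.5 replicate 1 (-2.01, adjusted p = 0.0561). The vascular endothelial markers Pecam1 and Cdh5 were lower at each later stage too: Pecam1 was at 17.1 to 26.3 FPKM in pNC, 6.14 to 11.5 in E14.5 corneas and 0.32 to 1.35 in E16.5 corneas. Kdr, another marker of that list, was at 18.3 to 32.5, 21.8 to 38.9 and 21.7 to 29.3 FPKM at the 3 stages, with log2 fold changes of 0.17 and 0.12 against E10.5, and was not called. The part of vessel cells in the fall of Foxc2 was not tested.

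The paralogs were also compared within each library. On the log2(FPKM + 1) scale, Foxc1 minus Foxc2 was 0.30, 0.05 and 0.12 in the E10.5 samples, 3.41, 2.41 and 3.20 in the E14.5 samples and 3.85, 3.39 and 3.52 in the E16.5 samples. All 6 cornea samples lay above all 3 pNC samples. The mean difference was 3.30 in the cornea and 0.16 in pNC, a gap of 3.14 (exact two-sided permutation test over samples, 3 against 6, p = 0.0238, the smallest it can give). The Foxc2 share of the expected counts of both genes was 35.5%, 39.7% and 38.6% at E10.5, 3.49%, 10.4% and 5.79% at E14.5 and 1.45%, 3.15% and 2.94% at E16.5. Among the 44 forkhead genes ranked by mean FPKM, Foxc1 was 5th, 1st and 2nd at the 3 stages, and Foxc2 was 7th, 13th and 21st. These ranks hold for the deposited lengths only, and those of Foxc1 rest on close means. At E10.5 the means of ranks 2 to 6 ran from 38.5 to 33.6 FPKM. Foxc1 overlapped Foxp4 at E14.5 (22.1 to 46.8 against 25.1 to 38.9 FPKM) and at E16.5 (19.0 to 21.3 against 19.7 to 21.0).

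**Figure D3:**
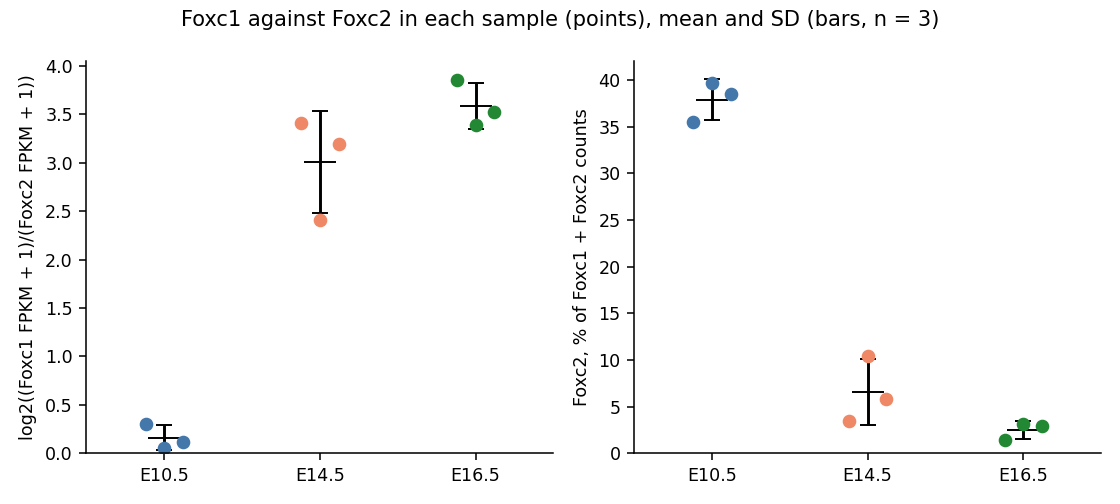
Left, log2 ratio of Foxc1 to Foxc2 in FPKM with 1 added to each (y axis) in each sample by stage. Right, Foxc2 as a percent of the expected counts of both genes. Black bars are the mean and SD of 3 samples. The pNC samples lie between 0.05 and 0.30 on the left axis and the cornea samples between 2.41 and 3.85.

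The pair shares some coding sequence, and reads from the shared part can fit both genes. Exactly shared words were few: 48 of the 2701 distinct 25-base words of the Foxc2 transcript were also in Foxc1. Of its 2676 distinct 50-base words, 4 were. Such words leave out reads placed with mismatches, so the full extent of shared reads was not measured. In the forkhead domain 308 of 340 aligned coding bases were identical (90.6%), with an identical run of 53 bases. The 150-base windows below, from the GRCm38 genome on the coding strand, are shown because they hold that shared stretch. Capitals mark bases identical to the aligned base of the other paralog, 137 of 150. The windows are chr13:31807597-31807746 (+ strand) for Foxc1 and chr8:121116983-121117132 (+ strand) for Foxc2.
Foxc1: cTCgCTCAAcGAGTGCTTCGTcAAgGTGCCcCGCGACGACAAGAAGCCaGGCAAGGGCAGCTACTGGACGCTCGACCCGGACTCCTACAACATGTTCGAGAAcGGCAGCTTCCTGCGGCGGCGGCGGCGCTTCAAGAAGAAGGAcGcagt
Foxc2: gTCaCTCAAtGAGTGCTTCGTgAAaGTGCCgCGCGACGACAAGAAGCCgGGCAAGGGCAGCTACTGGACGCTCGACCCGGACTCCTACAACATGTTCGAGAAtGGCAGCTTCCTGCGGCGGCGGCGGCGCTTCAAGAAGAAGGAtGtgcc

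The deposited counts of the pair were split in fractions that add up. The expected counts of Foxc1 and of Foxc2 were not whole numbers in 7 of 9 samples each, within a tolerance of 0.015, while their sum was whole in 9 of 9. Maf was not whole in 8 of 9 samples. The other 4 genes were whole in every sample. With the counts of Foxc1 and Foxc2 added and tested as 1 gene, a check made after the values were seen, the log2 fold change was -0.46 at E14.5 (adjusted p = 0.156) and -1.27 at E16.5 (adjusted p = 0.00133) against E10.5, and -0.81 from E14.5 to E16.5 (adjusted p = 0.0351), all by edgeR. The sum was called at E16.5 against E10.5 alone.

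Foxc1 and Foxc2 lie in separate forkhead clusters, and the protein-coding neighbours within 250000 bases, picked after values were seen, differed in how they moved. The nearer edge of Gmds, which encodes an enzyme of fucose synthesis, lies 8948 bases from Foxc1. Gmds averaged 18.01, 19.9 and 10.1 FPKM at the 3 stages in turn and was not called. Foxf2, a forkhead gene 175240 bases from Foxc1, averaged 15.5, 1.37 and 0.267 FPKM, and its log2 fold change at E16.5 against E10.5 was -5.65 (SE 0.47, edgeR adjusted p = 1.7e-06). Foxq1, 245670 bases from Foxc1, rose instead, from 1.46 to 11.7 FPKM (log2 fold change 3.15, SE 0.50, edgeR adjusted p = 0.00018). Beside Foxc2, Foxl1 (8790 bases away) and Foxf1 (28017 bases away) fell at E14.5, by 2.27 (SE 0.48) and 5.87 (SE 0.71) on the log2 scale, with edgeR adjusted p of 0.00218 and 6.4e-05. Both were low: Foxl1 averaged 4.33, 0.89 and 0.397 FPKM and Foxf1 2.15, 0.03 and 0.0333 FPKM. Foxf1 had 0, 0 and 2 counts in the E14.5 samples, so the size of its fall is loosely fixed. Mthfsd, 7758 bases from Foxc2 and between it and Foxf1, averaged 16.01, 20.1 and 17.9 FPKM and was not called.

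**Figure D4:**
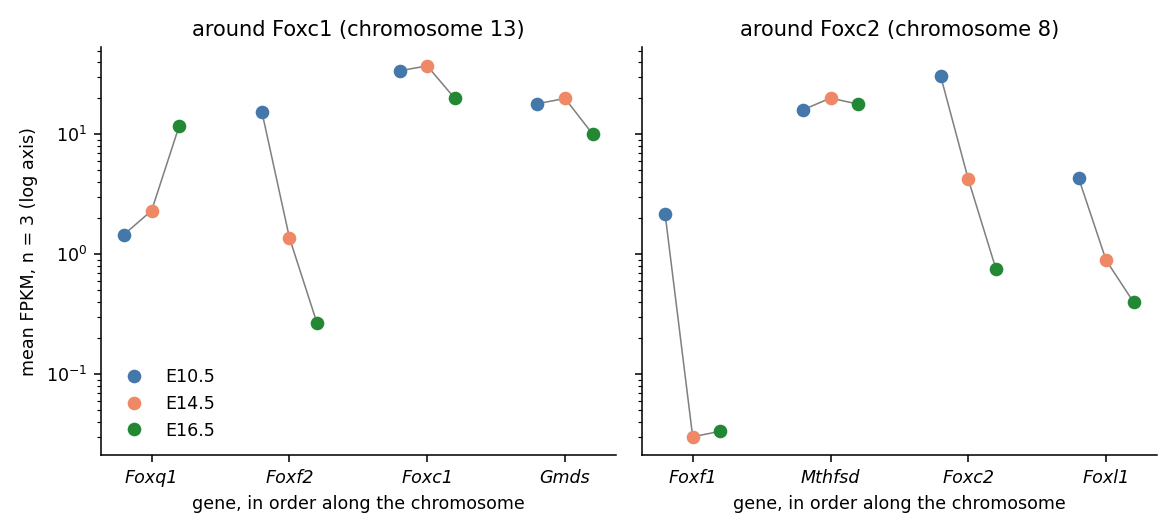
Mean FPKM of 3 samples (y axis, log scale) at each stage, with genes in order along the chromosome. Shown are the protein-coding genes found in the data within 250000 bases of Foxc1 (left) and Foxc2 (right). Foxc1 and Gmds are both highest at E14.5 and lowest at E16.5, while Foxc2, Foxf1, Foxl1 and Foxf2 fall after E10.5 and Foxq1 is highest at E16.5.

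The rest of the forkhead family was counted in the same way. Of the 41 other forkhead genes 28 were tested: 3 rose and 12 fell at E14.5, and 5 rose and 13 fell at E16.5, against E10.5. From E14.5 to E16.5, 3 rose and 4 fell. Over all genes tested, 13.6% rose and 7.97% fell in the first comparison, 19.4% and 15.4% in the second, and 6.26% and 5.47% between the cornea stages. The median log2 fold changes of the tested genes were -0.83, -0.83 and -0.30.

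Lmx1b (Entrez 16917, 8 exons, chr2:33560965-33641208 on the - strand) rose 6.86-fold from pNC to the E14.5 cornea and stayed high. It was at 6.66, 8.25 and 6.50 FPKM in the E10.5 samples, 35.9, 48.7 and 63.6 in the E14.5 samples and 29.2, 38.9 and 39.8 in the E16.5 samples. Every cornea sample was above every pNC sample, and the E14.5 and E16.5 samples overlapped. The log2 fold change was 2.78 (SE 0.23, edgeR adjusted p = 4.7e-06) at E14.5 and 2.48 (SE 0.23, edgeR adjusted p = 4.1e-06) at E16.5 against E10.5, and -0.30 (SE 0.20, edgeR adjusted p = 0.279) from E14.5 to E16.5.

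Most of the other LIM homeobox genes tested were lower in the cornea. Of 13 genes, counting the LIM cofactors Ldb1 and Ldb2, 8 were tested, and 7 fell against E10.5 at both later stages with none rising, beside 7.97% and 15.4% of all genes lower. From E14.5 to E16.5 Ldb2 rose (log2 fold change 1.23, edgeR adjusted p = 0.00102) and no other was called. Lmx1a, the paralog of Lmx1b, was at 2.82, 3.81 and 2.61 FPKM in pNC and at 0.10 or less in every cornea sample. Its log2 fold change was -5.23 (SE 0.38, edgeR adjusted p = 1.7e-06) at E14.5. Isl1, a LIM homeobox gene of neurons and other lineages, fell by 8.21 on the log2 scale at E14.5 (edgeR adjusted p = 2.3e-07), and Lhx2, a retinal gene, by 3.69 (edgeR adjusted p = 0.00082). Ldb1, the cofactor that bridges LIM factors, was at 96.8 to 114 FPKM in all 9 samples and was not called. Lmx1b thus moved opposite to all 7 genes of this list that were called against E10.5.

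The lens-linked factors Foxe3 and Pitx3 were barely detected in any sample. Foxe3 (Entrez 30923, 1 exon, chr4:114924443-114926067 on the - strand) was at 2.37, 1.44 and 0 FPKM in the E10.5 samples, 0.41, 0 and 0 in the E14.5 samples and 0, 0.27 and 0.13 in the E16.5 samples. These stand for 18, 11 and 0 counts, then 3, 0 and 0, then 0, 2 and 1. The E10.5 samples overlapped both later stages. Pooled over the stage, 29 counts at E10.5 stood against 3 at E14.5, a ratio of 9.54 (95% exact interval 2.96 to 48.9, for counting error only). In a fit without the count filter, added after the data were seen, Foxe3 was not called (-3.10 at E14.5, edgeR adjusted p = 0.0577, and -2.96 at E16.5, edgeR adjusted p = 0.0592). That fit called it without E10.5 replicate 3 (-3.67 and -3.53, edgeR adjusted p = 0.011 and 0.00974) or without E14.5 replicate 1 (-6.22 and -2.96, edgeR adjusted p = 0.0172 and 0.0322). The optic cup gene Rax was also lowest in E10.5 replicate 3, at 5.24, 6.63 and 0.61 FPKM in E10.5 replicates 1, 2 and 3. The 11 optic cup and pigment markers summed to 55.8 to 80.9 FPKM in pNC, 62.6 to 114 in E14.5 corneas and 31.1 to 33.8 in E16.5 corneas, and neither of the defining markers Rax and Tyr was at 0 in a pNC sample. Their part in the Foxe3 counts was not tested.

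Pitx3 (Entrez 18742, 4 exons, chr19:46135281-46148325 on the - strand) was at 0.57, 0.32 and 0.17 FPKM in the E10.5 samples, 0.08, 0 and 0 in the E14.5 samples and 0 in all 3 E16.5 samples. The counts were 7, 4 and 2, then 1, 0 and 0, then none. Every pNC sample was above every cornea sample, at levels of a few fragments. At E16.5 Pitx3 was 4.27-fold lower when its 13 counts at E10.5 were set against a floor of 3 counts over the 3 E16.5 libraries. That figure leaves out the counting error of the 13 and is not a lower bound. At E14.5 the ratio of 13 counts to 1 was 12.8 (95% exact interval 1.93 to 545). Without the filter edgeR called Pitx3 lower at E14.5 (-3.26, adjusted p = 0.0379), a call lost with DESeq2 (adjusted p = 0.121) and without E10.5 replicate 1 or 2 or E14.5 replicate 2 or 3 (edgeR adjusted p from 0.0744 to 0.14). It also called Pitx3 lower at E16.5 (adjusted p = 0.0123), where the size is not fixed because all counts were 0.

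Lens markers were low but not flat. The defining lens markers Cryaa, Crybb1 and Mip were at 1.94 FPKM or less in all 9 samples. Of the 23 lens genes listed as markers 6 were tested, and at both later stages 5 of them (Cryaa, Cryab, Crybb1, Bfsp1 and Bfsp2) were called higher than at E10.5 and Prox1 lower. Over all genes tested, 13.6% were called higher and 7.97% lower at E14.5, and 19.4% and 15.4% at E16.5. The summed FPKM of the 20 lens genes found in the data was 4.54 to 9.33 in pNC, 33.2 to 49.7 in E14.5 corneas and 50.8 to 56.6 in E16.5 corneas. Cryab, a small heat shock protein gene that is not restricted to lens, was at 3.68 FPKM or less in pNC and at 23.2 FPKM or more in each cornea sample. The part of lens cells in the values of Foxe3, Pitx3 and Maf was not tested.

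Maf (Entrez 17132, 1 exon, chr8:115703253-115706894 on the - strand) was expressed at every stage with small differences. It was at 7.09, 8.80 and 6.14 FPKM in the E10.5 samples, 11.4, 8.68 and 7.56 in the E14.5 samples and 11.6, 11.9 and 9.62 in the E16.5 samples. All E16.5 samples were above all E10.5 samples, and the E14.5 samples overlapped both. The log2 fold change was 0.31 (SE 0.17, edgeR adjusted p = 0.141) at E14.5 and 0.73 (SE 0.17, edgeR adjusted p = 0.00233) at E16.5 against E10.5, the latter under the fold-change minimum, and 0.42 (SE 0.16, edgeR adjusted p = 0.0685) between the cornea stages. Of the 6 other Maf genes 4 were tested, and none was called at E14.5 against E10.5, beside 21.6% of all genes. At E16.5 against E10.5, 3 rose, beside 19.4% of all genes. Among the 3 were Maff (log2 fold change 1.28, edgeR adjusted p = 0.00159) and Mafk (1.37, edgeR adjusted p = 0.00138).

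Cyp1b1 (Entrez 13078, 3 exons, chr17:79706940-79715061 on the - strand) was the gene of the 7 that rose at E14.5 and fell again by E16.5. It was at 1.85, 2.13 and 1.25 FPKM in the E10.5 samples, 6.48, 5.27 and 3.98 in the E14.5 samples and 1.22, 1.64 and 1.35 in the E16.5 samples. Every E14.5 sample was above the samples of both other stages, and E10.5 and E16.5 overlapped. The log2 fold change was 1.57 (SE 0.22, edgeR adjusted p = 0.00019) at E14.5 against E10.5, -1.73 (SE 0.23, edgeR adjusted p = 0.0007) from E14.5 to E16.5 and -0.16 (SE 0.24, edgeR adjusted p = 0.562) at E16.5 against E10.5. By the NOISeq criterion of the study, recomputed here on FPKM, neither step passed (probabilities 0.745 and 0.783 against a minimum of 0.8). Both were called by edgeR without E14.5 replicate 1.

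Cyp1b1 and Cyp1a1 are known targets of the aryl hydrocarbon receptor, encoded by Ahr. Ahr and Cyp1a1 were both called higher at E16.5 against E10.5, and of the 3 genes Cyp1b1 alone fell from E14.5 to E16.5. Ahr rose from 1.30, 1.55 and 1.18 FPKM in pNC to 45.3, 38.4 and 39.0 at E14.5 and 46.3, 55.9 and 52.0 at E16.5 (log2 fold change 4.91, SE 0.14, edgeR adjusted p = 5.7e-09, and 5.40, SE 0.14, edgeR adjusted p = 4e-09). Cyp1a1 was at 0, 0.04 and 0 FPKM, then 1.34, 0 and 0, then 3.55, 1.54 and 2.47. Cyp1a1 rose at E16.5 (edgeR adjusted p = 0.00125 against E10.5), when Cyp1b1 was back at its pNC level. Ahrr, the repressor of the receptor, rose 3.57-fold at E16.5 (log2 fold change 1.84, SE 0.28, edgeR adjusted p = 0.00016), and its dimerization partner gene Arnt2 fell (log2 fold change -1.47, SE 0.17, edgeR adjusted p = 1.6e-05). Arnt, which encodes the main partner, averaged 19.5, 28.5 and 26.2 FPKM and its change at E16.5 was 0.58 (edgeR adjusted p = 4.3e-05), under the fold-change minimum. Of the 9 genes of this list 8 were tested: 1 rose at E14.5, and 3 rose and 1 fell at E16.5, against E10.5. Over all genes tested, 13.6% rose and 7.97% fell at E14.5, and 19.4% rose and 15.4% fell at E16.5.

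The 250 bases before the RefSeq start of Cyp1b1 (GRCm38.p6, chr17:79715062-79715311, - strand) are shown because the receptor's core motif was searched there. Capitals mark the single match to GCGTG or its reverse complement CACGC, 76 bases before the start.
Cyp1b1: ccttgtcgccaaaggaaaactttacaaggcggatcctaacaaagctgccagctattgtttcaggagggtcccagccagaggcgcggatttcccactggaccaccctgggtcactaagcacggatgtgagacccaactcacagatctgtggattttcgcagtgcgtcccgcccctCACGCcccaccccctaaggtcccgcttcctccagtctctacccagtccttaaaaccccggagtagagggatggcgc

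The motif is common, with a match in 28.2% of 32851 promoter windows of this length, and Foxc1 has 1 match 191 bases before its start. The other motifs searched, on both strands, follow. The forkhead motif GTAAACA was in 3.17% of windows. The bicoid class homeodomain motif TAATCC was in 6.25% of all windows of that length. The Maf half-site, spelled TGCTGA, was found in 16.1% of the windows searched. The TATA motif, spelled TATAAA, was found in 12.4% of them. No motif is contained in another. No match to these 4 was found in the 5 windows at hand, those of Foxc1, Lmx1b, Foxe3, Pitx3 and Cyp1b1. A match is a string of letters and not a bound site.

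Profiles were compared by the root mean square difference of log2(FPKM + 1) after each gene was centred on its mean over the 9 samples, among genes with a mean of at least 5 FPKM at some stage. Of 10942 such genes the nearest were Gmds (0.149), Gmpr (0.172) and Tle3 (0.174) for Foxc1, and Asb4 (0.250), Hmga2-ps1 (0.272) and Hmga2 (0.319) for Foxc2. They were Notum (0.193), Sdc2 (0.215) and Gpr39 (0.233) for Lmx1b, and Ctss (0.244), Tmsb15b1 (0.252) and Steap1 (0.269) for Cyp1b1. Maf was nearest to Cars2 (0.0793), Uvrag (0.0921) and Dnajc4 (0.0942), which changed as little as it did. For Foxe3 they were Klf6 (0.303), Eng (0.316) and Acvrl1 (0.339) and for Pitx3 Spns1 (0.0475), Ehbp1l1 (0.0622) and Rptor (0.0688), and both profiles rest on 18 counts or fewer in any sample. Hmga2-ps1 and Hmga2 are near-identical in sequence and share reads. With a pseudocount of 0.1 the nearest 3 kept 1 gene for Foxc1, 1 for Foxc2, 0 for Lmx1b, Foxe3 and Pitx3, 2 for Cyp1b1 and 3 for Maf.

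Other genes mutated in anterior segment disease were set beside the 7. Of 21 such genes 20 were tested, and 6 rose and 5 fell at E14.5 and 8 rose and 5 fell at E16.5 against E10.5, with median log2 fold changes of 0.40 and 0.49. These 11 and 13 of 20 stand beside 21.6% and 34.8% of all genes. Among those that rose at both stages were the transcription factor genes Pax6, Tfap2a and Tfap2b, the endothelial transporter gene Slc4a11 and the matrix gene Ltbp2. Slc4a11 and Ltbp2 stayed low, with means of 0.287, 0.963 and 1.78 FPKM and of 0.05, 0.343 and 0.617 FPKM at the 3 stages in turn. Pax6, the master gene of eye development, rose from 3.44 to 10.4 FPKM in pNC to 88.8 to 145.9 at E14.5 and 186 to 237 at E16.5, with log2 fold changes of 3.81 (SE 0.34, edgeR adjusted p = 7.9e-06) and 4.89 (SE 0.36, edgeR adjusted p = 7.7e-07). Tfap2b, a neural crest AP-2 factor, rose by 3.71 (SE 0.24, edgeR adjusted p = 9.3e-07) at E14.5. At both stages Eya1, Bmp4, Foxd3 and the vessel and drainage canal genes Tek and Angpt1 fell, and Eya1, a transcriptional cofactor, changed most (-4.25, edgeR adjusted p = 1.6e-07, and -6.23, edgeR adjusted p = 4e-08). Foxd3 and Angpt1 were under 5 FPKM at every stage, with means of 2.64, 0.763 and 0.937 FPKM and of 3.99, 0.32 and 0.0633 FPKM. From E14.5 to E16.5, Pax6 rose and Eya1, Tek and Tgfb2 fell, 4 of 20 (beside 11.7% of all genes) with a median of 0.14. Without E14.5 replicate 1 that count was 8, and without E14.5 replicate 2 or E16.5 replicate 1 it was 2. Tgfb2, like Foxc1, was low in E14.5 replicate 1 (8.76 FPKM, against 40.2 on average in the other two). Myoc, the myocilin gene, was at 0.22 FPKM or less and was not tested.

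**Figure D5:**
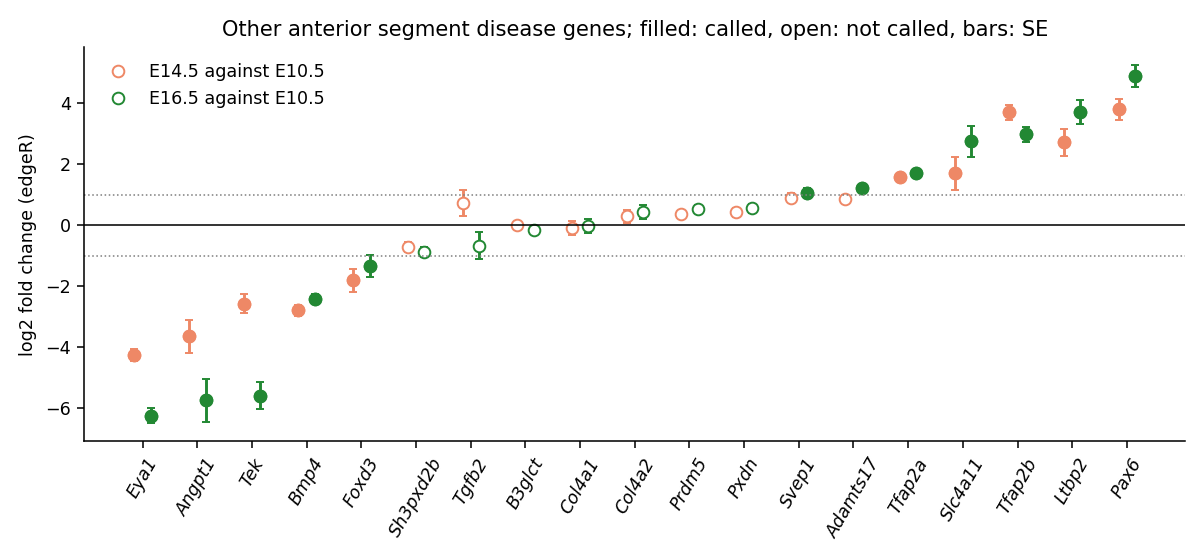
Log2 fold changes (y axis) of 19 tested genes of anterior segment disease other than the 7, for each cornea stage against E10.5, sorted by the E16.5 value. Bars are standard errors, filled points were called and open points were not. Pax6, Ltbp2 and Tfap2b lie highest and Eya1, Angpt1 and Tek lowest. Ltbp2 was at 0.69 FPKM or less in every sample.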

How the data were processed

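The data were RNA-Seq of 9 pooled mouse samples, 3 each of E10.5, E14.5 and E16.5 by the sample labels. The authors filtered reads, mapped them with Bowtie2 and, to GRCm38, with HISAT, and quantified them with RSEM. They deposited an expected count per gene (an estimate, not normalized), an FPKM value and a transcript length. A gene not listed in a sample was taken as 0. Expected counts were rounded and tested with edgeR 4.0.16 in R 4.3.3 (TMM, filterByExpr, 1 model of stage over all 9 samples). DESeq2 1.42.0, limma 3.58.1 and the NOISeq criterion were alternatives. The edgeR fit was tested on simulated data. Totals of 8745161 to 9069023 expected counts per sample keep counting error small only for genes with many counts. Foxe3 and Pitx3 had few counts in every sample, and Foxc2 had 10.08, 22.0 and 23.0 in the E16.5 samples. Symbols, coordinates and promoters came from RefSeq, exons from GENCODE. The 7 genes and the gene lists were chosen with earlier results of these data known. Genes named in the text were the 7, the disease list, list genes at a mean of 5 FPKM or more, defining markers and the 3 nearest profiles. Genes below that level, chromosomal neighbours, motifs and the shared-count check were picked after values were seen. The paper's own comparison tables were not used, and a few list genes are not reported here. Replicate numbers were not taken as pairs: deviations from the stage means correlated at -0.0341 on average for same-numbered samples (9 pairs) and 0.0178 for others (18 pairs). Replicates differed by more than counting noise (chi-square per degree of freedom 2.94 to 26.3), so none was a plain re-sequencing of another's library. This measure cannot tell separate libraries of the same pool from libraries of separate pools.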

Additional observations from a re-analysis of the deposited data

How the results depend on the processing

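Alternatives were DESeq2 size factors or library totals in place of TMM, DESeq2, limma on log2(FPKM + 1) or log2(FPKM + 0.1), the NOISeq criterion, no count filter, no fold-change minimum, a replicate block and leaving out each sample. The calls of Lmx1b and of Foxc2 against E10.5 held under all of them. With no fold-change minimum, Foxc1 passed at E16.5 against E10.5 (-0.62) and E14.5 (-0.74) and Maf at E16.5 against E10.5 (0.73), which gave 4 of the 7 genes called at E16.5 against E10.5 and 7 of the other disease genes from E14.5 to E16.5. By NOISeq, Foxc2 (-2.48) and Cyp1b1 (-1.90) from E14.5 to E16.5 and Cyp1b1 at E14.5 against E10.5 (1.59) did not pass, which left 0 of the 7 and 2 disease genes called from E14.5 to E16.5, where limma called 1 or, with the smaller pseudocount, 2. The cause was not tested. With Foxc1 and Foxc2 counts added, the change was -0.46 at E14.5, opposite in sign to Foxc1 alone, and -1.27 at E16.5, against E10.5. Leaving out single samples moved Foxc1 between -0.10 and 0.40 at E14.5 against E10.5, its sign turning without E10.5 replicate 3 (-0.05) and without E14.5 replicate 3 (-0.10), and between -1.01 and -0.52 from E14.5 to E16.5. It moved Foxc2 between -2.75 and -1.68 from E14.5 to E16.5, the number of the 7 called there between 1 and 3 and of the disease genes between 2 and 8. The Foxc1 to Foxc2 gap was 3.83 with a pseudocount of 0.1 and 3.90 on expected counts, and ran from 3.03 to 3.32 when samples were left out. Without an E10.5 sample the exact permutation test gave p = 0.0714, the smallest that 2 against 6 samples allow. Foxe3 from E14.5 to E16.5, outside the filter, ran from -0.72 to 3.26 and changed sign without E14.5 replicate 2 (-0.39), E14.5 replicate 3 (-0.37) or E16.5 replicate 2 (-0.72). The mean FPKM of Foxc1 at E16.5 was 21.4 after TMM scaling.

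The replicate number as a block changed no call at the fold-change minimum, but on the edgeR adjusted p alone, from E14.5 to E16.5, Foxc1 went from 0.0414 to 0.0541 and Maf from 0.0685 to 0.0346. The block gave 0.09, -0.62 and -0.70 for Foxc1 (E14.5 against E10.5, E16.5 against E10.5 and E16.5 against E14.5), -3.01, -5.23 and -2.22 for Foxc2, 2.75, 2.47 and -0.28 for Lmx1b, 1.58, -0.14 and -1.72 for Cyp1b1 and 0.31, 0.74 and 0.43 for Maf.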
